A study of Mus musculus with 15 samples.

Results

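Some ribosomal proteins are encoded by a pair of genes, a ubiquitous one and a similar copy that can take its place in the ribosome. The 3 such pairs described here are Rpl22 with Rpl22l1, Rps27 with Rps27l, and Rpl36a with Rpl36al. They were chosen by symbol from both deposited tables, and all 6 members were found among 24819 genes. All 6 passed the filter used for testing, at least 1 FPKM (fragments per kilobase of transcript, scaled to the mapped fragments of the library) in 2 or more of 10 libraries. RNA was sequenced from the mouse embryonic stem cell line E14, kept on gelatin in serum with leukemia inhibitory factor, after transfection of siRNA with DharmaFECT. The siRNAs were directed at Rpl11 (siRpl11), Rpl14 (siRpl14), Rpl18 (siRpl18) or Rpl23 (siRpl23), all genes of the large (60S) ribosomal subunit, and the control was a non-targeting siRNA (siNT). Sample titles give 48 hours of knockdown and the treatment protocol gives 3 days. Each of the 5 groups had 3 libraries of polyadenylated RNA, made with a stranded kit. Libraries numbered 1 and 2 share 1 table and entered the tests (n = 2 per group), and the third library of each group sits in a separately normalized table and is given beside them, tested only where a fit with the third libraries is named.

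Rpl22 is a protein of the 60S subunit, and Rpl22l1 is its closest relative. In mouse, Rpl22 protein is known to hold down the level of Rpl22l1 RNA, so that loss of Rpl22 raises its relative. Rps27 belongs to the small (40S) subunit. Its relative Rps27l is known as a target of the transcription factor p53, which free 60S proteins such as Rpl11 help to stabilize by binding its inhibitor Mdm2. Rpl36a and Rpl36al encode nearly the same 60S protein, and Rpl36al is a gene of few exons.

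How far members of a pair differ sets how well short reads can tell them apart. The coding sequences below are from GENCODE M21 on GRCm38, 5′ to 3′, with capitals at the bases that differ from the partner, or have no counterpart in it, in the alignment. Rps27l lies on chromosome 9 (plus strand) and Rps27 on chromosome 3 (minus strand). They are shown because Rps27l rose in all 4 knockdowns.
Rps27l: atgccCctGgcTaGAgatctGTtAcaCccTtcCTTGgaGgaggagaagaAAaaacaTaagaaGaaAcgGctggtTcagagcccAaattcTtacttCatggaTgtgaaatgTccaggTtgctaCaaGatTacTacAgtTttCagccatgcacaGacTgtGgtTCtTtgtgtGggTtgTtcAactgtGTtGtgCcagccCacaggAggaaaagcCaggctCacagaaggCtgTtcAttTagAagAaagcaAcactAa
Rps27: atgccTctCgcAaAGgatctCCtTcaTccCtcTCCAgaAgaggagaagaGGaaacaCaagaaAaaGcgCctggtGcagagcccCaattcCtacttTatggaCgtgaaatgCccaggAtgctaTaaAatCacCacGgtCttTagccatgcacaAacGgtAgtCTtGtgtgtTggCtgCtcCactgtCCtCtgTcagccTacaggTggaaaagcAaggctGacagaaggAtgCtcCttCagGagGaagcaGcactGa
Rpl22l1 lies on chromosome 3 (plus strand) and Rpl22 on chromosome 4 (plus strand). The first 150 coding bases are shown, as these were the least alike of the pairs.
Rpl22l1: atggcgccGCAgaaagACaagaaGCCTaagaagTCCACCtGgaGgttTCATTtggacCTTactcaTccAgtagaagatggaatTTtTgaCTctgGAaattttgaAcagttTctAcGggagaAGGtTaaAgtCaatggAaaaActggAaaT
Rpl22: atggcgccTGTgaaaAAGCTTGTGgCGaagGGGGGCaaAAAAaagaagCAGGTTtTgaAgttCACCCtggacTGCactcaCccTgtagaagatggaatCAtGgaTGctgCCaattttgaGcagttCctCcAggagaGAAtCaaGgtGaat

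Rps27l and Rps27 were identical at 76.1% of 255 coding bases, with no identical stretch longer than 11 bases. Rpl22l1 and Rpl22 were identical at 66.9% of the aligned coding bases, with a longest shared stretch of 26 bases. Rpl36al (chromosome 12, minus strand) and Rpl36a (chromosome X, plus strand) were identical at 87.9% of 321 coding bases, with a longest shared stretch of 24 bases. No 50-base window of any transcript used here was shared within a pair. Windows were shared with genes outside the pairs, however. The Rps27 transcript had 98.6% of its windows in other genes, and 292 of its 296 windows in Rps27rt, a gene of 1 exon on chromosome 9. RefSeq lists Rps27 among the synonyms of Rps27rt, and the coding sequences of Rps27rt and Rps27 were identical over 255 bases. The share of windows found in another gene was 22.4% for Rps27l, 24.5% for Rpl22, 57.3% for Rpl22l1, 63.3% for Rpl36al and 85.5% for Rpl36a. How the authors assigned reads that fit several genes is not given in the sources used here, so members with high shares are uncertain.

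The knockdowns left 24.0% of Rpl11, 51.6% of Rpl14, 32.6% of Rpl18 and 36.3% of Rpl23 RNA in their own groups, relative to siNT. Summed pluripotency markers (10 genes) ranged from 5400 to 8297 FPKM over the libraries numbered 1 and 2, and from 6348 to 7282 FPKM over the others. Summed fibroblast and feeder markers (12 genes) stayed at 21.5 FPKM or less, and Col1a1 at 0.76 FPKM or less. Thy1 was higher, at 3.68 to 15.1 FPKM in the libraries numbered 1 and 2 and 6.57 to 18.9 FPKM in the others. Depth is known only in relative terms, since FPKM keeps no read total. From the spacing of the lowest values, libraries numbered 1 and 2 had 0.698 to 1.39 times the depth of the first siNT library, and the third libraries 1.00 to 1.31 times that of their own siNT library. Separate cultures are not stated for libraries of a group, and the p-values therefore reflect the spread of these libraries alone, which may be technical. In bulk RNA, fewer cells of a type and less RNA per cell cannot be told apart.

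Rps27l rose in all 4 knockdowns. Its level was 963 and 927 FPKM in siRpl11, 949 and 955 FPKM in siRpl14, 975 and 1045 FPKM in siRpl18 and 1031 and 1040 FPKM in siRpl23, against 577 and 624 FPKM in siNT. All 8 knockdown libraries were above both siNT libraries, with no overlap. The share of all genes without overlap was not counted, here or for the members below. On the log2(FPKM + 1) scale the difference from siNT was 0.65 ± 0.05 (SE) in siRpl11 (limma, Benjamini-Hochberg adjusted p = 3.21e-06), and 0.66 ± 0.05 in siRpl14 (adjusted p = 3.84e-06). It was 0.75 ± 0.05 in siRpl18 (adjusted p = 1.30e-06) and 0.79 ± 0.05 in siRpl23 (adjusted p = 1.03e-06). These are rises of 1.57-fold, 1.58-fold, 1.68-fold and 1.72-fold. Rises passed for 27.3%, 33.3%, 32.8% and 34.9% of all genes tested in siRpl11, siRpl14, siRpl18 and siRpl23. The 4 comparisons share the siNT libraries. In the third libraries Rps27l was at 1060 FPKM in siRpl11, 1396 in siRpl14, 1707 in siRpl18 and 1564 in siRpl23, against 677 in siNT. Every knockdown was again above siNT, by log2 differences of 0.65, 1.04, 1.33 and 1.21. From lowest to highest mean in the first table, the groups ran siNT, siRpl11, siRpl14, siRpl18, siRpl23. None of its 6 differences between knockdowns passed the test. Of all genes, 59.2% passed between siRpl11 and siRpl14, 53.4% between siRpl11 and siRpl18, 55.3% between siRpl11 and siRpl23, 14.2% between siRpl18 and siRpl14, 0.514% between siRpl23 and siRpl14 and 3.49% between siRpl18 and siRpl23. The difference of siRpl11 from siRpl23 was -0.13, with a 95% interval of -0.25 to -0.01 and adjusted p = 0.0627. Calls between knockdowns depended on the fit. After quantile normalization Rps27l was lower in siRpl11 than in siRpl14 (-0.20), siRpl18 (-0.29) and siRpl23 (-0.34), and in the fit of all 15 libraries it was lower in siRpl11 than in siRpl18 (-0.29) and siRpl23 (-0.27). The siRpl23 difference also passed without either siRpl18 library (-0.13). With median-ratio scaling the siRpl14 difference turned to 0.11 and did not pass.

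The Rps27 row was far lower and did not pass the test in any knockdown. It read 4.19 and 7.36 FPKM in siRpl11, 7.94 and 5.41 in siRpl14, 7.28 and 5.73 in siRpl18 and 6.68 and 7.50 in siRpl23, against 4.21 and 7.94 in siNT. The groups overlapped throughout. The log2 differences from siNT were -0.05, 0.15, 0.13 and 0.24, each ± 0.27, with adjusted p of 0.450 or more (limma, Benjamini-Hochberg). The 95% intervals were wide, with the lowest bound at -0.66 in siRpl11 and the highest at 0.86 in siRpl23. Changes in either direction were therefore not excluded with these libraries. In the third libraries the Rps27 row read 6.32, 7.60, 8.95 and 9.32 FPKM in siRpl11, siRpl14, siRpl18 and siRpl23, against 5.39 in siNT. Every knockdown was above siNT there. The row of Rps27rt, identical in coding sequence, held most of the signal: 2629 and 2977 FPKM in siRpl11, 2694 and 3033 in siRpl14, 2493 and 2883 in siRpl18 and 2812 and 2924 in siRpl23, against 2377 and 2541 in siNT. The Rps27 row was 0.159 to 0.312% of the sum of both rows over the first table, against 0.0957 to 0.127% for the third libraries. Reads of the shared sequence cannot be told apart, so neither row alone measures Rps27. Rps27rt itself did not pass the test, with log2 differences of 0.19, 0.22, 0.13 and 0.22 (each ± 0.09, adjusted p = 0.0951, 0.0628, 0.251 and 0.0565). In the third libraries it was at 6314, 7857, 7016 and 9724 FPKM in siRpl11, siRpl14, siRpl18 and siRpl23, against 4355 in siNT, a wider gap than in the first table.

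**Figure D1:**
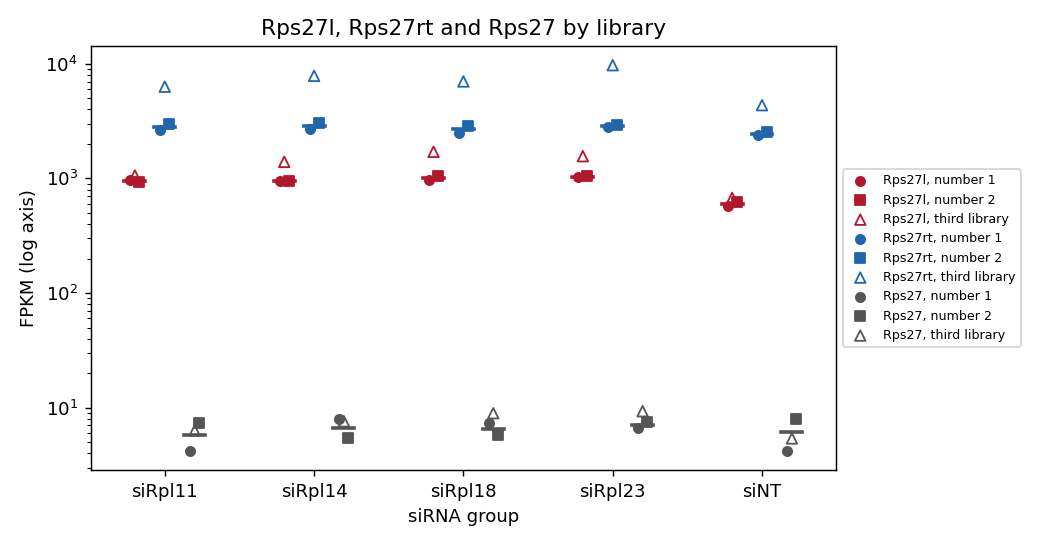
FPKM on a log axis of Rps27l, Rps27rt and Rps27 in each library, by siRNA group. Filled symbols are libraries numbered 1 (circles) and 2 (squares), short bars their mean, and open triangles the third libraries of the separately normalized table; Rps27l lies at 927 to 1045 FPKM in the knockdowns against 577 and 624 FPKM in siNT, and Rps27 lies under 10 FPKM in every library.

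FPKM is per transcript length, so levels within the family are set side by side here. The annotation and the handling of shared reads are not known, so the shares are uncertain. Rps27rt was 1.32 log2 units higher in the second table than in the first, a gap that 1.07% of genes tested exceeded. Rps27l made up 25.2% ± 2.17 (SD, n = 2) of the sum of Rps27l, Rps27 and Rps27rt in siRpl11. It made up 25.0% ± 1.48 in siRpl14, 27.3% ± 1.06 in siRpl18 and 26.5% ± 0.421 in siRpl23, against 19.6% ± 0.115 in siNT. The lowest knockdown library, 23.7% in siRpl11, was above the highest siNT library, 19.7%. In the third libraries the shares were 14.4%, 15.1%, 19.6% and 13.8%, against 13.4% in siNT, so each knockdown was above siNT and the gap was smallest in siRpl23. The log2 ratio of Rps27l to the Rps27 row rose in siRpl11 (0.70 ± 0.27, limma Benjamini-Hochberg adjusted p = 0.0390). It did not pass in siRpl14 (0.52, adjusted p = 0.123), siRpl18 (0.62, adjusted p = 0.0658) or siRpl23 (0.54, adjusted p = 0.103). The siRpl11 call was lost without siNT library 2 (0.37) or siRpl11 library 1 (0.33), and without siNT library 1 the other 3 passed (0.85, 0.95 and 0.88). The ratio in siRpl18 also passed without either siRpl11 library (0.62). With the Rps27 and Rps27rt rows summed, a choice made after seeing the data, the ratio was higher in siRpl11 (0.47, adjusted p = 0.00133), siRpl14 (0.45, adjusted p = 0.00219), siRpl18 (0.62, adjusted p = 0.000222) and siRpl23 (0.56, adjusted p = 0.000465).

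The genes with the pattern most like Rps27l over the 10 libraries, by root mean square difference of centred log2 values among 6240 candidates, were Brix1 (0.048), Sys1 (0.049) and Fam192a (0.049). Brix1 was at 83.3, 84.1, 89.1 and 89.3 FPKM in siRpl11, siRpl14, siRpl18 and siRpl23, against 50.7 FPKM in siNT. In the second table the same 3 genes ranked 268, 828 and 377, so their closeness there was lower.

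Genes of the p53 pathway were counted from a list of 40 targets that did not include Rps27l, 39 of them tested. In siRpl11, 25 passed as higher and 9 as lower, with a median log2 difference of 0.44, against -0.11 over all genes tested. The counts were 33 and 4 in siRpl14 (median 1.07 against 0.02), 33 and 5 in siRpl18 (1.24 against -0.02), and 33 and 5 in siRpl23 (1.13 against 0.02). Mdm2, which encodes the ligase that removes p53, rose by 1.76, 2.70, 3.13 and 3.04. Cdkn1a, the gene of the cell cycle inhibitor p21, did not pass in siRpl11 (0.09, limma Benjamini-Hochberg adjusted p = 0.192) but did with median-ratio scaling (0.19, adjusted p = 0.0134), and it rose by 1.17, 1.34 and 1.17 in siRpl14, siRpl18 and siRpl23. In the third libraries Cdkn1a was at 58.2 FPKM in siRpl11, 133 in siRpl14, 146 in siRpl18 and 136 in siRpl23, against 42.7 in siNT. Trp53, which encodes p53, rose by 1.54 in siRpl11 and by 0.71, 0.95 and 0.77 in the others. Over the 4 tested comparisons the log2 difference of Rps27l spanned 0.13, that of Mdm2 1.37 and that of Cdkn1a 1.25. The targets Ccng1 and Zmat3 ran from 0.54 to 1.53 and from 0.33 to 1.04, each lowest in siRpl11. The range of Rps27l was wider elsewhere. It ran from 0.65 in siRpl11 to 1.33 in siRpl18 in the third libraries, and from 0.69 in siRpl11 to 1.03 in siRpl23 after quantile normalization.

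RefSeq windows of 300 bases around the starts of the members' transcripts (GRCm38.p6) were searched for the p53 half-site, the decamer bound by a p53 dimer. Of the 2 windows of Rps27l, 1 held 2 matches, in the first intron of the 3 Rps27l transcripts that start upstream of them. The windows of Rps27 and Rps27rt held 1 each, and none was found in those of Rpl22, Rpl22l1, Rpl36a and Rpl36al. The Rps27l stretch chr9:66946203-66946315 (plus strand) runs from one match to the other and overlaps no annotated exon; capitals mark the matches.
Rps27l intron: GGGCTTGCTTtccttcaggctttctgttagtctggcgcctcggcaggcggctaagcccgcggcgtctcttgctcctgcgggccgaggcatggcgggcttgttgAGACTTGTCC
The 93 bases between them are more than the 13 allowed for a full site. At least 1 half-site was found in 8.36% of 32851 such windows of all genes, and 0.0731% held 2 within that spacing, which the Rps27l window does not. How many windows hold 2 matches at any spacing was not counted. The half-site reads alike on both strands, so 1 strand was searched. A match is a description of letters only.

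Rpl22 fell in 3 of the 4 knockdowns. Falls passed for 43.6%, 29.5%, 34.7% and 30.8% of all genes in siRpl11, siRpl14, siRpl18 and siRpl23. It was at 335 and 362 FPKM in siRpl11, 278 and 299 FPKM in siRpl14, 264 and 289 FPKM in siRpl18 and 281 and 298 FPKM in siRpl23, against 357 and 377 FPKM in siNT. The siRpl14, siRpl18 and siRpl23 libraries were all below siNT, and siRpl11 overlapped with siNT. The log2 difference from siNT was -0.35 ± 0.06 (SE) in siRpl14 (limma, Benjamini-Hochberg adjusted p = 0.000858), -0.41 ± 0.06 in siRpl18 (adjusted p = 0.000242) and -0.34 ± 0.06 in siRpl23 (adjusted p = 0.000879). In siRpl11 it was -0.07 ± 0.06 (adjusted p = 0.312), with a 95% interval of -0.22 to 0.07, and 0.02 with median-ratio scaling. The differences between knockdowns were tested directly. Rpl22 was higher in siRpl11 than in siRpl14 by 0.27 (adjusted p = 0.00413), than in siRpl18 by 0.34 (adjusted p = 0.00137) and than in siRpl23 by 0.27 (adjusted p = 0.00511). These were the only 3 of 36 member tests between knockdowns that passed. In the same 3 comparisons 59.2%, 53.4% and 55.3% of all genes passed. After quantile normalization the differences from siRpl14 and siRpl23 were smaller, 0.17 in both, and still passed. In the third libraries Rpl22 was at 338 FPKM in siRpl11, 282 in siRpl14, 279 in siRpl18 and 311 in siRpl23, against 330 in siNT. The order of siRpl11 above the other knockdowns was the same there, but the siRpl23 library was at 94.3% of siNT.

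Trophectoderm markers passed as higher mostly in the same 3 knockdowns. Rises passed for 33.3%, 32.8% and 34.9% of all genes in siRpl14, siRpl18 and siRpl23, and for 27.3% in siRpl11. Of 8 listed and 7 tested, 6 passed as higher in each of siRpl14, siRpl18 and siRpl23, and 2 as higher and 3 as lower in siRpl11. Their summed level was 85.9 to 86.4 FPKM in siRpl14, 65.7 to 68.2 FPKM in siRpl18, 86.7 to 92.5 FPKM in siRpl23 and 31.5 to 32.0 FPKM in siRpl11, against 31.3 to 31.9 FPKM in siNT. Elf5, one of the defining markers, was at or near 0 in every library. Of the 10 pluripotency markers, 2 passed as higher and 7 as lower in each of siRpl14, siRpl18 and siRpl23, and 4 as higher and 5 as lower in siRpl11. The neural and primitive endoderm counts did not split this way. Of 5 neural markers tested, 2 passed as higher and 1 as lower in each knockdown. Of 5 primitive endoderm markers tested, 3 were higher in siRpl11 and siRpl14 and 4 in siRpl18 and siRpl23, and 1 was lower in each. The part of any of these lists in the fall of Rpl22 was not tested.

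Rpl22l1 did not pass the test in any knockdown, and its libraries differed within each knockdown. The libraries numbered 1 were at 78.9 FPKM in siRpl11, 75.3 in siRpl14, 74.3 in siRpl18 and 76.6 in siRpl23, against 74.5 in siNT. The libraries numbered 2 were at 49.4, 56.6, 47.1 and 52.3 FPKM in the same order, against 72.4 in siNT. The third libraries were at 271, 317, 293 and 345 FPKM in the same order, against 488 in siNT. Knockdown libraries numbered 1 thus stood at 99.7 to 105.8% of their siNT library, those numbered 2 at 65.1 to 78.2%, and the third at 55.7 to 70.8%. The tested log2 differences were -0.23, -0.17, -0.31 and -0.21 in siRpl11, siRpl14, siRpl18 and siRpl23, each ± 0.26, with limma adjusted p of 0.317 or more (Benjamini-Hochberg). With libraries numbered 2 and the third ones alone, a choice made after seeing the values, the differences were -0.69, -0.48, -0.67 and -0.48. That choice leaves out the knockdown libraries in which Rpl22l1 was near siNT, so it cannot serve as a test of a fall. Between libraries numbered 1 and 2 of a group the mean gap of Rpl22l1 was 0.46 log2 units, and 0.669% of kept genes had a larger one. Rpl22l1 was also 2.36 log2 units higher in the second table than in the first, a gap that 0.261% of kept genes exceeded. Of its 503 windows of 50 bases, 284 also occur in Gm15421, whose own row was at 0.656 to 2.26 FPKM in the first table.

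**Figure D2:**
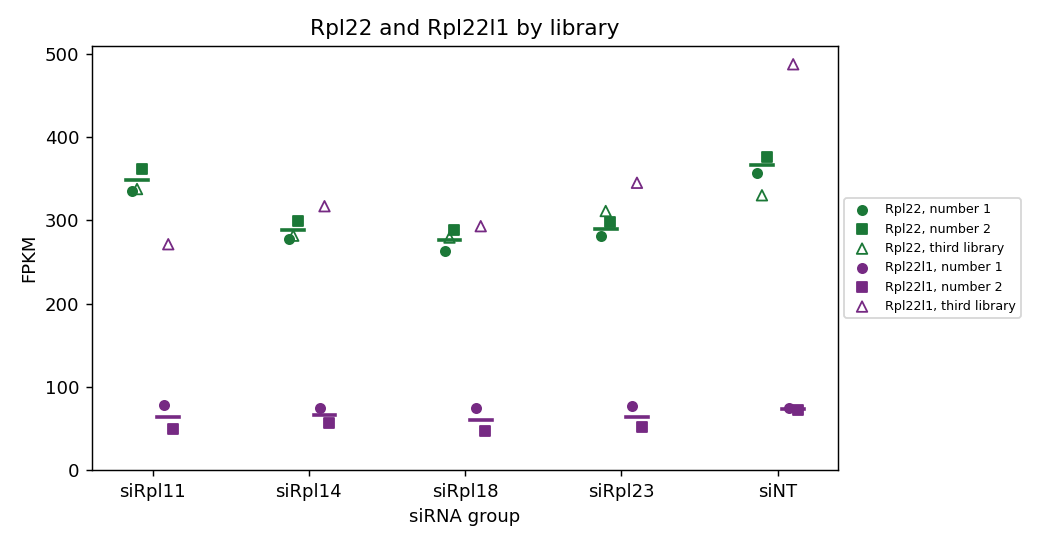
FPKM of Rpl22 and Rpl22l1 in each library, by siRNA group, from 0. Filled circles and squares are libraries numbered 1 and 2 with their mean as a short bar, and open triangles are the third libraries; Rpl22 is lower in siRpl14, siRpl18 and siRpl23 (264 to 299 FPKM) than in siNT (357 and 377 FPKM), and the third libraries of Rpl22l1 stand at 271 to 488 FPKM, above all of the first table.

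The share of Rpl22l1 in the sum of the pair was 15.5% ± 4.99 (SD, n = 2) in siRpl11, 18.6% ± 3.81 in siRpl14, 18.0% ± 5.62 in siRpl18 and 18.2% ± 4.59 in siRpl23, against 16.7% ± 0.808 in siNT. These overlapped. In the third libraries the shares were 44.6%, 52.95%, 51.2% and 52.6%, against 59.6% in siNT. The log2 ratio of Rpl22l1 to Rpl22 did not pass in any knockdown (-0.16, 0.18, 0.10 and 0.13, each ± 0.31).

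Rpl36a and Rpl36al were each a little lower in the knockdowns in the first table. Rpl36a was at 1651 and 1742 FPKM in siRpl11, 1584 and 1803 in siRpl14, 1539 and 1661 in siRpl18 and 1529 and 1661 in siRpl23, against 1779 and 1981 in siNT. The siRpl14 group overlapped with siNT and the other 3 did not. Rpl36a fell in siRpl18 (log2 difference -0.23 ± 0.08, limma Benjamini-Hochberg adjusted p = 0.0297) and siRpl23 (-0.24 ± 0.08, adjusted p = 0.0280), and was -0.15 in both siRpl11 and siRpl14 (adjusted p = 0.136 and 0.134). Rpl36al was at 568 and 584 FPKM in siRpl11, 509 and 569 in siRpl14, 489 and 539 in siRpl18 and 536 and 536 in siRpl23, against 582 and 638 in siNT. Only siRpl11 overlapped with siNT. Rpl36al fell in siRpl14 (-0.18 ± 0.07, adjusted p = 0.0427), siRpl18 (-0.25 ± 0.07, adjusted p = 0.00911) and siRpl23 (-0.19 ± 0.07, adjusted p = 0.0358), and was -0.08 in siRpl11 (adjusted p = 0.308). Each of these 5 calls was lost without siNT library 2, with values of -0.15 and -0.16 for Rpl36a in siRpl18 and siRpl23, and -0.11, -0.18 and -0.12 for Rpl36al in siRpl14, siRpl18 and siRpl23. Each was also lost without library 1 of its own knockdown (-0.18 and -0.18 for Rpl36a, and -0.10, -0.18 and -0.19 for Rpl36al). The siRpl14 call of Rpl36al was lost too without any 1 of the siRpl11 or siRpl23 libraries (-0.18), and its siRpl23 call without siRpl23 library 2 (-0.18). In siRpl14, Rpl36a passed without siRpl14 library 2 (-0.25). After quantile normalization Rpl36al was 0.01, -0.05 and 0.04 in siRpl14, siRpl18 and siRpl23, so the sign in siRpl14 and siRpl23 turned, whereas Rpl36a stayed below siNT. The third libraries differed little from siNT, at 94.9 to 107.5% of it for Rpl36a and 93.4 to 107.0% for Rpl36al.

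**Figure D3:**
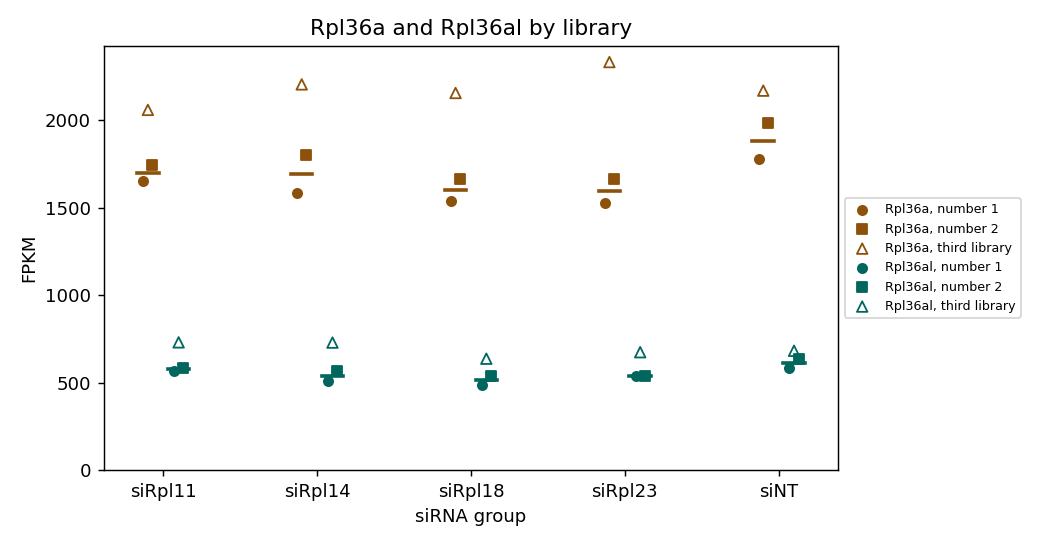
FPKM of Rpl36a and Rpl36al in each library, by siRNA group, from 0. Filled circles and squares are libraries numbered 1 and 2 with their mean as a short bar, and open triangles are the third libraries; the falls are small, with Rpl36al at 489 to 584 FPKM in the knockdowns against 582 and 638 FPKM in siNT.

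The shares within the pair differed little between groups. Rpl36al was 25.3% ± 0.343 (SD, n = 2) of the pair in siRpl11, 24.2% ± 0.230 in siRpl14, 24.3% ± 0.274 in siRpl18 and 25.2% ± 1.12 in siRpl23, against 24.5% ± 0.223 in siNT. The log2 ratio of Rpl36al to Rpl36a was 0.06, -0.03, -0.02 and 0.05, each ± 0.07, and passed in none, with 95% intervals between -0.17 and 0.21. After quantile normalization the ratio did pass in all 4 (0.30, 0.17, 0.15 and 0.24, where 68.5%, 63.7%, 68.3% and 66.5% of all genes passed), so this result depends on the scaling. Next to Rpl36al, the divergent gene Mgat2, which encodes an N-glycan branching enzyme, rose in all 4 knockdowns (0.45, 0.74, 0.60 and 0.75). In the third libraries Mgat2 was at 21.2 FPKM in siRpl11, 30.3 in siRpl14, 23.0 in siRpl18 and 26.4 in siRpl23, against 20.9 in siNT. The siRpl11 library was thus close to siNT there. Next to Rpl36a, Gla, which encodes alpha-galactosidase A, fell in all 4 (-0.60, -0.53, -0.43 and -0.48). Hnrnph2, an RNA-binding protein gene also listed as a neighbour of Rpl36a, fell in siRpl14 and siRpl18 (-0.14 and -0.15) and was 0.01 in siRpl11 and -0.06 in siRpl23.

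**Figure D4:**
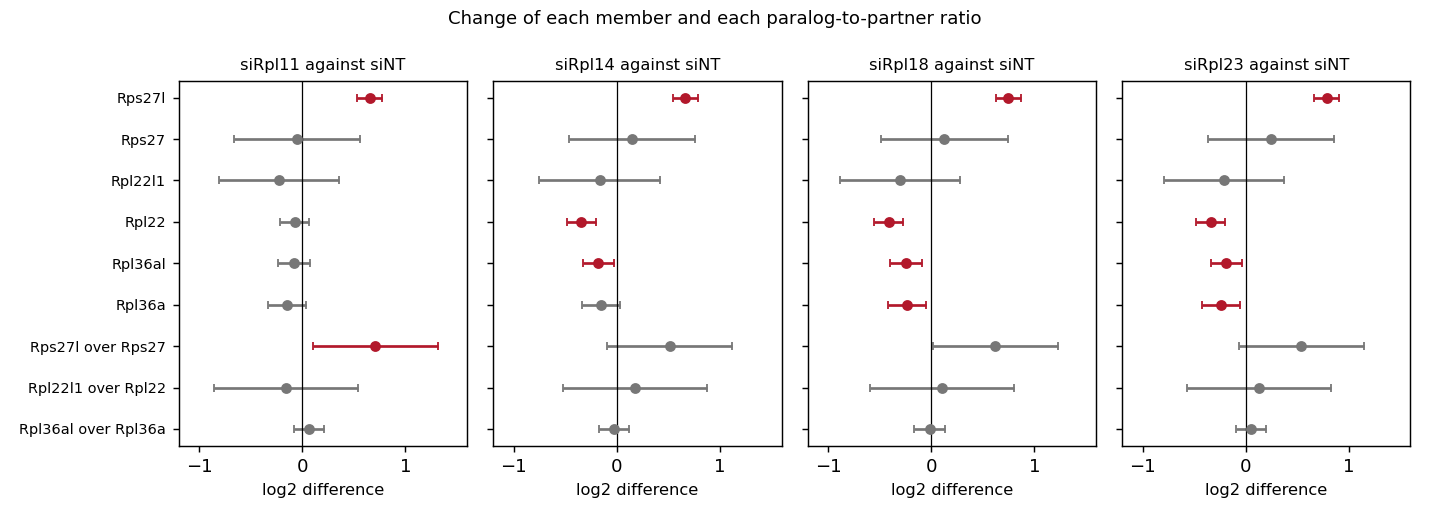
Log2 difference from siNT of each member and each paralog-to-partner ratio, in 1 panel per knockdown, with 95% intervals (limma, log2(FPKM + 1), n = 2 per group). Red points passed at adjusted p under 0.05; Rps27l is the only member above 0 that passed, at 0.65 to 0.79, and the widest intervals are those of Rps27, Rpl22l1 and their ratios.

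Counted over members, 12 of 24 tests against siNT passed. In siRpl11 1 of 6 passed, where 70.9% of all genes did. In siRpl14 3 of 6 passed against 62.8% of all genes, in siRpl18 4 of 6 against 67.5%, and in siRpl23 4 of 6 against 65.7%. These shares of members were near or below those of all genes. Among the other 60S proteins that were not targeted, 18 of 41 passed as higher and 2 as lower in siRpl11 (median log2 difference 0.18), where none of the pair members of the 60S subunit passed. In siRpl14, siRpl18 and siRpl23, 3, 3 and 4 were higher and 14, 13 and 14 lower. Of 32 proteins of the 40S subunit, 22 passed as higher and 2 as lower in siRpl11, and 6 and 2, 10 and 1, and 9 and 1 in siRpl14, siRpl18 and siRpl23. The median of all genes in siRpl11 was -0.11 with the deposited scaling and 0.01 after quantile normalization, and 38.5% of called genes were higher with the deposited scaling against 50.9% after it. After quantile normalization the 60S counts were 17 higher and 11 lower in siRpl11, 10 and 12 in siRpl14, 14 and 14 in siRpl18 and 12 and 11 in siRpl23. The 40S counts were then 19 higher and 4 lower in siRpl11, 15 and 2 in siRpl14, 16 and 2 in siRpl18 and 16 and 2 in siRpl23. With median-ratio scaling 32 of the 60S proteins were higher and 2 lower in siRpl11 (median 0.28), so these counts depend on the scaling.

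The other ribosomal protein paralogs changed in different directions. Rpl39l, the relative of the 60S protein gene Rpl39, fell in all 4 knockdowns (-0.43, -0.61, -0.75 and -0.64, each ± 0.05, limma Benjamini-Hochberg adjusted p of 3.07e-05 or less). Its partner Rpl39 differed by 0.25, -0.12, -0.19 and -0.14, and passed in siRpl11, siRpl18 and siRpl23, of which siRpl18 alone passed after quantile normalization. With median-ratio scaling Rpl39 passed in siRpl14 too (-0.14). In the third libraries Rpl39 was at 3615, 3619, 3452 and 4056 FPKM in siRpl11, siRpl14, siRpl18 and siRpl23, against 2982 in siNT. The falls of the first table were thus not seen there. Rpl10l rose in siRpl11 (0.57, adjusted p = 2.28e-05) and passed in none of the others. Rpl7l1 rose in siRpl11, siRpl14 and siRpl18 (0.35, 0.17 and 0.18) and was 0.09 in siRpl23. Its siRpl14 call was lost with median-ratio scaling (0.15). Rpl3l, at 0.98 FPKM in siRpl11, 1.21 in siRpl14, 0.931 in siRpl18 and 1.36 in siRpl23 against 1.69 in siNT, fell in siRpl11 and siRpl18 (-0.44 and -0.48) and was -0.28 in siRpl14 and -0.19 in siRpl23. After quantile normalization its siRpl11 call was lost (-0.16). Its partner Rpl3 fell in all 4 (-0.93, -0.76, -0.93 and -0.81). Of these 8 genes and the 6 members, Rps27l was the only one that passed as higher in all 4 knockdowns. In the third libraries, which were not tested here, Rpl39, Rpl10l and Rps27 also stood above siNT in all 4.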

How the data were processed

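Polyadenylated RNA from 15 libraries (5 groups of 3) was analysed. The deposited tables hold FPKM for each gene, computed by the authors from STAR alignments to mm9 with Cuffnorm, per the submitters' processing notes. Tool versions, gene annotation and Cuffnorm options were not given in the sources used here. Another 2 columns of the first table that match no sample were not used. References belong to GRCm38, so no position is on the authors' build.

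Values were taken as log2(FPKM + 1), which understates changes of low genes. The 10 libraries of the first table were fitted with limma 3.58.1 in R 4.3.3 (1 term per group, eBayes with trend, 5 residual degrees of freedom) over 12249 genes that reached 1 FPKM in 2 libraries or more, with the 3 log2 ratios as added rows. Two-sided p-values were Benjamini-Hochberg adjusted over the whole fit, and an adjusted p under 0.05 was called. The code was tested on simulated data. Sequences were compared with Python 3.11.15 and Biopython 1.88. Libraries were grouped by title.

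Named genes are the 6 members, the 4 targets, 4 other paralogs with partners, 5 p53 pathway genes, neighbours, rows named after a member, and the 3 genes most like a member whose group means span 0.5 or more. Rpl22l1's overlap gene Gm15421 was chosen after its values were seen. The members and lists were chosen with earlier results of these data known. Alternatives were another pseudocount, filter, scaling, set of libraries and a replicate block; summing Rps27 with Rps27rt and pairing single first-table libraries with the third were added after seeing the data. The labels do not tie libraries of the same number together, and they were not treated as paired.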

Additional observations from a re-analysis of the deposited data

How the results depend on the processing

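Values are log2 differences from siNT, in the order siRpl11, siRpl14, siRpl18, siRpl23 where 4 are given. Of 884 values under alternatives, 766 were labelled the same as in the main fit. For a member or ratio this means the same direction and call. The 884 also include counts of genes called, for which it means a count close to the main one. Rps27l passed in all 4 knockdowns under all 19 alternatives (0.60 to 1.03), and so did the fall of Rpl22 in siRpl14, siRpl18 and siRpl23 (-0.48 to -0.26). Where another value changed, the cause was not tested unless named.

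A pseudocount of 0.1 ended the call of Rps27l over Rps27 in siRpl11 (0.71), and one of 5 gave the other 3 knockdowns a call (0.57, 0.67 and 0.64). Without a filter, which tests more genes, the calls of that ratio in siRpl11 (0.70), Rpl36al in siRpl14, siRpl18 and siRpl23 (-0.18, -0.25 and -0.19) and Rpl36a in siRpl18 and siRpl23 (-0.23 and -0.24) were lost. A minimum of 10 FPKM, which tests fewer genes and leaves out Rps27, called 5159, 4558, 4891 and 4740 genes, against 8681, 7692, 8273 and 8052. Median-ratio scaling turned Rpl22, Rps27 and Rpl36al in siRpl11 (0.025, 0.033 and 0.018) and Rps27l in siRpl11 against siRpl14 (0.11).

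Quantile normalization turned or moved Rps27 in siRpl11 (0.17), Rpl36al (0.012, 0.0066, -0.053 and 0.036) and Rpl36al over Rpl36a (0.30, 0.17, 0.15 and 0.24). It gave Rpl36a a call in siRpl11 and siRpl14 (-0.29 and -0.17), turned Rpl22l1 over Rpl22 in siRpl18 and siRpl23 (-0.023 and -0.020), and put Rps27l over Rps27 at 0.52 (call lost), 0.77, 0.84 and 0.82 (calls gained). The fit of all 15 libraries turned Rps27 in siRpl11 (0.031), Rpl22l1 over Rpl22 in siRpl14, siRpl18 and siRpl23 (-0.011, -0.10 and -0.051) and Rpl36al over Rpl36a in siRpl14 and siRpl23 (0.0056 and -0.0069). It ended the calls of Rpl36al in siRpl14 and siRpl23 (-0.088 and -0.13) and of Rpl36a in siRpl18 and siRpl23 (-0.16 and -0.12), and gave Rps27l over Rps27 calls in siRpl14, siRpl18 and siRpl23 (0.55, 0.64 and 0.53). Fitting only the groups compared ended the calls of Rpl36al in siRpl14 (-0.18) and Rpl36a in siRpl18 (-0.23), and gave Rps27l over Rps27 calls in siRpl18 and siRpl23 (0.62 and 0.54). Such fits give no comparison between knockdowns.

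With the Rps27 and Rps27rt rows summed, Rps27 was 0.19 in siRpl11, and Rps27l over Rps27 gained calls in siRpl14, siRpl18 and siRpl23 (0.45, 0.62 and 0.56). With libraries numbered 2 and the third ones, Rpl22l1 was -0.69, -0.48, -0.67 and -0.48, and its ratio to Rpl22 -0.68, -0.20, -0.36 and -0.27. With those numbered 1 and the third ones, that ratio was -0.0081, -0.030 and -0.014 in siRpl14, siRpl18 and siRpl23. The last 3 choices were made after seeing the data.

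Deviations of libraries with the same number correlated weakly (r of -0.09 to 0.20 over 10 pairs of groups, 5 of them over 0.1), and no label ties the numbers, so they were not treated as paired. Among the genes described here, library 2 was above library 1 in all 5 groups for Rpl22, Rpl36a and Rps27rt, and library 1 above library 2 in all 5 for Rpl22l1. A replicate block called 9103, 8268, 8776 and 8554 genes, and gave calls to Rpl22 in siRpl11 (-0.074, SE 0.025 against 0.063 without it), to Rpl36a in siRpl11 and siRpl14 (-0.15 in both, SE 0.030 against 0.082), and to Rps27l in siRpl11 against siRpl23 (-0.13).

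Leaving out each library in turn, with the lone library of a group taken to vary like the others, Rps27 ranged over -0.44 to 0.34 in siRpl11, -0.24 to 0.54 in siRpl14, -0.26 to 0.52 in siRpl18 and -0.15 to 0.63 in siRpl23. Rps27l over Rps27 ranged over 0.33 to 1.08 in siRpl11, 0.18 to 0.85 in siRpl14, 0.29 to 0.95 in siRpl18 and 0.21 to 0.88 in siRpl23. Rpl22l1 ranged over -0.56 to 0.10 in siRpl11, -0.37 to 0.035 in siRpl14, -0.63 to 0.016 in siRpl18 and -0.48 to 0.060 in siRpl23. Rpl22l1 over Rpl22 ranged over -0.54 to 0.23 in siRpl11, -0.077 to 0.43 in siRpl14, -0.28 to 0.49 in siRpl18 and -0.18 to 0.44 in siRpl23. Rpl36al ranged over -0.26 to -0.10 in siRpl14, -0.32 to -0.18 in siRpl18 and -0.25 to -0.12 in siRpl23. Rpl36a ranged over -0.25 to -0.058 in siRpl14, -0.31 to -0.15 in siRpl18 and -0.31 to -0.16 in siRpl23. Rpl36al over Rpl36a ranged over -0.0098 to 0.11 in siRpl23, and Rps27l in siRpl11 against siRpl14 over -0.038 to 0.016.

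Depth is unknown, and 2 libraries a group limit what the tests can show, most of all for Rps27 and Rpl22l1, whose libraries spread widest.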
